A study of Mus musculus with 12 samples.

Results

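The 9 genes described here are the transcription factor gene Nfe2l2, which encodes NRF2, and 8 antioxidant genes that it is known to control: Nqo1, Gclm, Gclc, Txnrd1, Srxn1, Prdx1, Txn1 and Slc7a11. They were chosen by symbol, and all 9 were found among the 24445 gene symbols counted in macrophages (Mφ) sorted from mouse hearts. RNA was sequenced from CD14+/CD64+ cardiac Mφ of adult male C57BL6/J mice, in 12 libraries, 4 in each of 3 groups. ECH mice (early concentric hypertrophy) carried a pump that delivered isoproterenol, which stimulates β-adrenoceptors, for 14 days, and in HF mice (heart failure) the pump ran for 28 days. The isoproterenol dose was 30 mg/kg/day in both. Pumps of the control (Ct) group held saline, and no source used here gives how long each of these pumps ran. All groups were wild type, and all cells went through the same collagenase digestion, CD45 bead enrichment and sort of live CD11b+ cells. The question addressed is whether the NRF2 antioxidant genes of cardiac Mφ differed between saline, the 14-day stage and the 28-day stage.

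NRF2 is held at a low level in resting cells by KEAP1, an adaptor that hands it to a CUL3 ubiquitin ligase for degradation. Oxidants and electrophiles modify KEAP1, so that newly made NRF2 escapes, pairs with a small MAF protein and binds antioxidant response elements near its target genes. Because this control acts largely on the protein, the mRNA of Nfe2l2 itself need not follow NRF2 activity. The targets fall into a glutathione arm (GCLC and GCLM make up the first enzyme of glutathione synthesis, SLC7A11 imports cystine for it), a thioredoxin arm (TXN1, its reductase TXNRD1, the peroxidase PRDX1 and SRXN1, which repairs over-oxidised peroxiredoxins) and detoxifying reductases such as NQO1. In Mφ these genes buffer the oxidants that the cells make with their own NADPH oxidase.

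Promoter sequences are shown first because the antioxidant response element is what links these genes. In the RefSeq table of windows from 250 bases before to 50 bases after each start (build GRCm38.p6), 8 of the 9 genes had an entry. Txnrd1 had 3 starts. The letters TGACNNNGC, the core of the element, were searched on both strands and were present in the windows of 5 of these 8 genes (Nfe2l2, Gclm, Txnrd1, Srxn1 and Prdx1), against 12.4% of all 32851 windows and 14.0% of all 27025 genes in the table. The related letters TGAGNNNGC and TGAGTCA, the core of the AP-1 site, were searched after the sequences had been seen. TGAGNNNGC was present in 3 of 8 genes (Srxn1, Prdx1 and Slc7a11), against 17.6% of windows and 19.8% of genes in the table. TGAGTCA was present in 2 of 8 genes (Srxn1 and Prdx1), against 5.20% of windows and 5.95% of genes. The Srxn1 and Prdx1 windows held the most matches and are printed whole up to the start, followed by the match with 10 bases on either side for Nfe2l2, Gclm, Txnrd1 and Slc7a11. All are written 5′ to 3′ on the strand of the gene. Capitals mark a match of TGAGNNNGC in Srxn1 and Slc7a11 and of TGACNNNGC in the others, or its reverse complement.
Srxn1, chr2:152105274-152105523, plus strand: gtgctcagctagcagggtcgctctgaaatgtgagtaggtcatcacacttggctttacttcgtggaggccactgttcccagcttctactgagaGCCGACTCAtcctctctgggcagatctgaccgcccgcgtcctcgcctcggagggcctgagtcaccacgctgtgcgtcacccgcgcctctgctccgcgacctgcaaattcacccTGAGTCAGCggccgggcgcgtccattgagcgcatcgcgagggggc
Prdx1, chr4:116685349-116685598, plus strand: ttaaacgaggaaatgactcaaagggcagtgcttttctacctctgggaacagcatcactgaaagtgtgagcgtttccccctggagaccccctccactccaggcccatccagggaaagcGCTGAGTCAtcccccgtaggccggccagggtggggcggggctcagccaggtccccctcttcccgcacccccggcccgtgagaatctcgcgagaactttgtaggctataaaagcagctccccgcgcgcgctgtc
Nfe2l2, chr2:75704885-75704913, minus strand: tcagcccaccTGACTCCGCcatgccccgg
Gclm, chr3:122245413-122245441, plus strand: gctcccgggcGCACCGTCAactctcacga
Txnrd1, chr10:82859104-82859132, plus strand: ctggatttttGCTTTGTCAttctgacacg
Slc7a11, chr3:50443692-50443720, minus strand: taatgttggcGCTTTCTCAagctggagtt

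The matches began 45 and 158 bases before the start in Srxn1 and 133 bases before it in Prdx1. They began 240 bases before the start in Nfe2l2, 134 in Gclm, 97 in Slc7a11 and 92 before the second of the 3 starts of Txnrd1. The capitals nearest the start of Srxn1 (TGAGTCAGC) contain TGAGTCA, and those of Prdx1 (GCTGAGTCA) contain it as well, so these matches were counted under both motifs. Each of these genes held a second TGAGTCA match further upstream, at 102 bases before the start in Srxn1 and 237 in Prdx1. Another TGACNNNGC match of Srxn1 and a TGAGNNNGC match of Prdx1 lay after the start and are not printed. Nqo1 and Txn1 held none of these letters in their windows, and Gclc had no entry. A match is a description of letters, and binding of NRF2 was not measured in this series.

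Library totals lay between 88466559 and 111180291 counts, and levels are given as CPM, counts scaled to a common library size, so that 1 CPM stands for about 100 counts. CPM values are scaled by TMM, a method that balances library composition. Libraries Ct 2 and HF 1 detected the fewest genes of their groups (14489 and 13600) and held 127 and 188 genes at 0 counts where every other library of the group had at least 100 counts. The other libraries held at most 7 such genes. Each library number from 1 to 6 occurs in 2 libraries of different groups. The libraries were split here into a set A (Ct 1 to 4, ECH 1 and 2) and a set B (HF 1 to 4, ECH 3 and 4). Each set holds every number from 1 to 6, but other splits would do so too. The membership of the sets, and that they were prepared or sequenced apart, are inferences that the labels do not state. If both hold, Ct and HF cannot be told apart from the sets, and only ECH has libraries in both. The sorted cells expressed the Mφ markers Cd14 (2537 ± 456 CPM in Ct, 2387 ± 407 in ECH and 2101 ± 339 in HF, SD, n = 4 each) and Fcgr1, the gene of CD64 (120 ± 27, 124 ± 47.6 and 159 ± 19.4 CPM).

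None of the 9 genes was called in any comparison. The comparisons came from a single edgeR quasi-likelihood model of all 12 libraries, with Benjamini-Hochberg adjustment over 14608 genes and a gene called at a false discovery rate (FDR) under 0.05, and all 9 passed its filter on low counts. The background was 0.472% of all genes called in ECH against Ct (69 genes), 0.513% in HF against Ct (75 genes) and 0% in HF against ECH (0 genes), so that a list of 9 genes with no call does not stand below it. The more liberal tools called none of the 9 either, at backgrounds of 3.29%, 4.81% and 0.493% with DESeq2, 2.51%, 3.33% and 0.424% with the edgeR likelihood ratio test, and 0.945%, 2.10% and 0% with limma-voom, in the order of these comparisons. The values nevertheless sorted into different patterns. Gclm, Gclc and Txnrd1 had their highest mean in ECH, Srxn1 had similar means in ECH and HF, both above Ct, Prdx1 and Txn1 had their highest mean in HF, Slc7a11 had its lowest mean in HF, and the mean of Nfe2l2 varied by less than its spread. In the bulk RNA of sorted cells, more transcript per cell and a larger share of cells rich in it cannot be told apart.

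**Figure D1:**
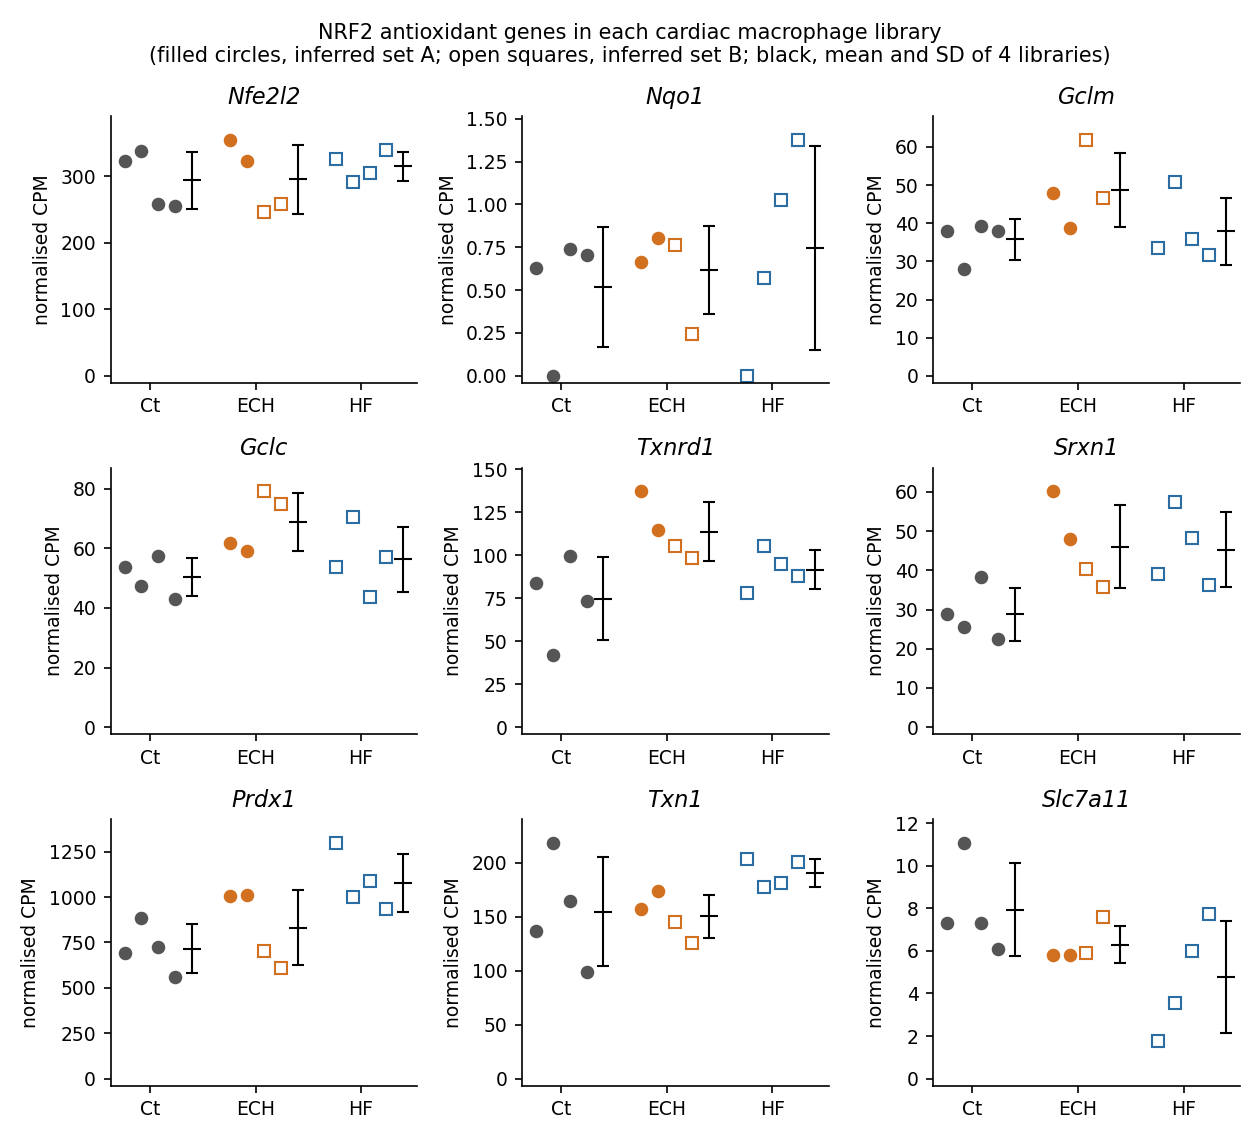
Each panel plots the TMM-normalised CPM (vertical axis from 0) of a gene in the 4 Ct, 4 ECH and 4 HF libraries, with filled circles for the inferred set A, open squares for set B and the mean and SD of each group in black. All 4 ECH values of Gclc lie above the Ct values, all 4 HF values of Prdx1 lie above the Ct values, and Nqo1 is at 0 in 1 Ct and 1 HF library.

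Levels between genes were compared per length, as CPM per kilobase of all exons of a gene merged (GENCODE M21, GRCm38), over the 12 libraries. Prdx1 had the highest level per kilobase (288 ± 72.6, SD, n = 12), followed by Txn1 (157 ± 33.0) and Nfe2l2 (79.5 ± 10.1). Gclc (15.5 ± 3.08), Srxn1 (14.2 ± 4.16) and Txnrd1 (13.2 ± 3.32) stood close together. Gclm followed at 6.49 ± 1.5 per kilobase, and Slc7a11 (0.455 ± 0.164) and Nqo1 (0.404 ± 0.255) were lowest. The ranges of the libraries overlapped between Prdx1 and Txn1, from Gclc through Srxn1 and Txnrd1 to Gclm, and between Slc7a11 and Nqo1. Txn1 and Nfe2l2, Nfe2l2 and Gclc, and Gclm and Slc7a11 did not overlap. The order depends on the length used: with the longest coding transcript in place of merged exons, Txnrd1 moved to 25.8 CPM per kilobase, above Gclc (17.1) and Srxn1 (14.2).

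**Figure D2:**
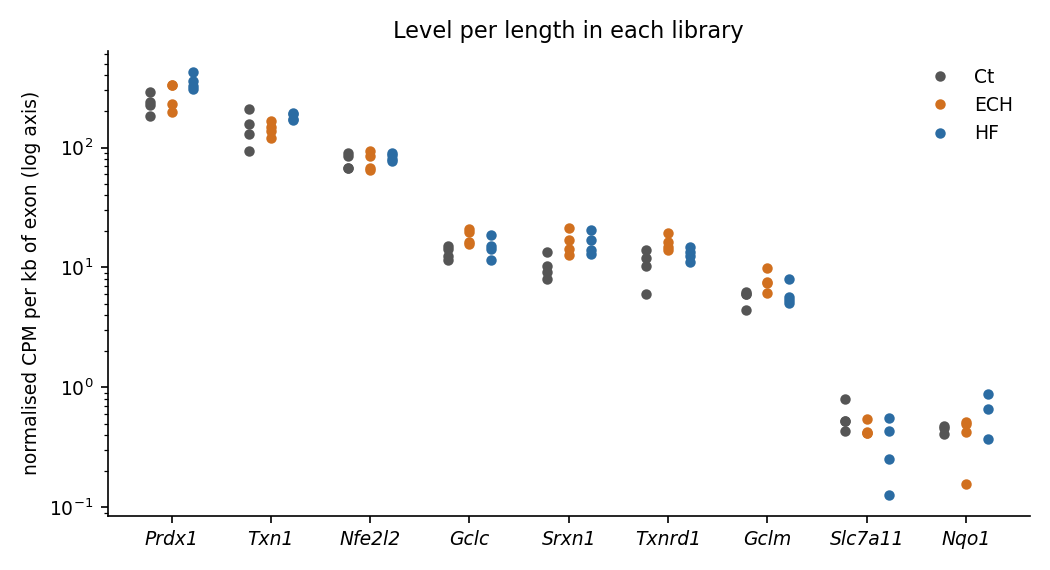
The CPM per kilobase of merged exon (vertical log axis) is plotted for the 9 genes in order of their mean, with 1 point per library coloured by group. Prdx1 and Nqo1 differ by about 3 decades on the log axis, while the groups of any gene differ far less, and the 2 libraries with 0 counts of Nqo1 cannot be drawn on a log axis.

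Nfe2l2 (chr2:75675513-75704641, minus strand, GRCm38) was well expressed in every library. The Ct libraries 1 to 4 held 323, 339, 258 and 256 CPM. The ECH libraries held 355, 323, 247 and 258 CPM, and the HF libraries 326, 291, 305 and 341 CPM. The groups overlapped, and the 4 lowest values came from Ct 3, Ct 4, ECH 3 and ECH 4. The means were 294 ± 43.1 CPM in Ct, 296 ± 52.0 in ECH and 315 ± 22 in HF (SD, n = 4 each). Nfe2l2 differed by a log2 fold change of 0.01 in ECH against Ct (95% confidence interval -0.31 to 0.33, edgeR FDR 0.993) and 0.10 in HF against Ct (-0.22 to 0.42, edgeR FDR 0.788). These intervals leave out a 2-fold change of Nfe2l2 mRNA in either direction, under this model, and the value in HF against Ct was 0.53 with the library set inferred from the library numbers as a covariate. The tested genes with the libraries' pattern most like that of Nfe2l2 were Mdm2, Slbp and Mrpl32. Their log2 CPM, centred per gene, differed from it by 0.0746, 0.0864 and 0.0896 on average over the 12 libraries.

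None of 11 genes of NRF2 regulators and partners was called in any comparison. Keap1, the adaptor that retains NRF2, held 62.4 ± 9.92 CPM in Ct, 69.8 ± 5.21 in ECH and 60.5 ± 7.61 in HF. Sqstm1, whose protein p62 sequesters KEAP1, held 729 ± 201, 699 ± 112 and 613 ± 135 CPM. Bach1, a repressor that competes for the same elements, held 42.1 ± 15.5, 31.9 ± 3.69 and 33.0 ± 6.65 CPM. Of the small MAF partners, Mafg held 49.0 ± 3.08 CPM in Ct, 63.2 ± 8.23 in ECH and 47.6 ± 8.06 in HF, with a log2 fold change of 0.37 in ECH against Ct (edgeR FDR 0.331) and -0.41 in HF against ECH (edgeR FDR 0.564). Mafk held 85.4 ± 15.2, 89.2 ± 13.5 and 66.2 ± 5.0 CPM, with -0.37 in HF against Ct (edgeR FDR 0.267) and -0.43 in HF against ECH (edgeR FDR 0.564). The HF values of Mafk lay below all ECH values. Those of Rbx1 lay above all ECH values, at 174 to 202 CPM in HF and 148 to 166 CPM in ECH. The log2 fold change of Rbx1 in HF against ECH was 0.26 (edgeR FDR 0.765). Of the 11 genes, 1 was higher and 1 lower without overlap in HF against ECH, beside 3.36% and 3.56% of all genes. Over the 11 genes the median log2 fold change was -0.07 against Ct in both ECH and HF, and -0.04 in HF against ECH. The ligase subunits Cul3 and Rbx1, the kinase gene Gsk3b and the adaptor gene Btrc, which take part in NRF2 degradation, the related factor Nfe2l1 and the third small MAF gene, Maff, had log2 fold changes against Ct between -0.87 and 0.19.

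In the glutathione arm, Gclc and Gclm were higher and Slc7a11 was lower in ECH than in Ct on the mean, without a call. Gclc (chr9:77754535-77794485, plus strand), the catalytic subunit, held 53.6, 47.3, 57.3 and 43.1 CPM in the Ct libraries. The ECH libraries held 61.9, 59.0, 79.1 and 75.0 CPM, and the HF libraries 53.7, 70.4, 43.8 and 57.2 CPM. Every ECH library lay above every Ct library, while HF overlapped with both. The log2 fold change in ECH against Ct was 0.45 (95% confidence interval 0.10 to 0.81, 1.37-fold, edgeR FDR 0.290), and in HF against Ct it was 0.16 (-0.19 to 0.52, edgeR FDR 0.684). HF lay below ECH by a log2 fold change of -0.29 (edgeR FDR 0.706).

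Gclm (chr3:122245557-122270732, plus strand), the modifier subunit of the same enzyme, held 38.0, 27.9, 39.4 and 37.9 CPM in Ct. It held 48.0, 38.6, 61.9 and 46.7 CPM in ECH and 33.5, 50.9, 35.8 and 31.6 CPM in HF. Only ECH 2 came below the highest Ct library, and HF 2 was the only HF library above the Ct range. Gclm had a log2 fold change of 0.45 in ECH against Ct (95% confidence interval 0.03 to 0.87, 1.36-fold, edgeR FDR 0.385). In HF against Ct it was 0.08 (edgeR FDR 0.877), and in HF against ECH -0.36 (edgeR FDR 0.673). The subunits had nearly the same fold change in ECH, and both had their highest library in ECH 3.

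Slc7a11 (chr3:49892526-50443614, minus strand), the light chain of the cystine and glutamate exchanger, was expressed at few CPM. The Ct libraries held 7.30, 11.1, 7.32 and 6.07 CPM, and the ECH libraries 5.83, 5.83, 5.91 and 7.61 CPM. The HF libraries held 1.78, 3.54, 6.0 and 7.72 CPM, the widest spread of any group for this gene. The groups overlapped. Slc7a11 differed by a log2 fold change of -0.34 in ECH against Ct (edgeR FDR 0.791) and -0.74 in HF against Ct (95% confidence interval -1.61 to 0.13, edgeR FDR 0.395). Its highest and its lowest library, Ct 2 and HF 1, were those with the most genes at 0, and without them the log2 fold change in HF against Ct was -0.27 (edgeR FDR 0.716). Slc3a2, the gene of the exchanger's heavy chain, which also serves other transporters, held 286 ± 37.5 CPM in Ct, 398 ± 68.2 in ECH and 325 ± 48.1 in HF. Its log2 fold change was 0.48 in ECH against Ct (edgeR FDR 0.246), so that the chains had opposite signs there. Slc7a11 had the widest range of group means of the 9 genes (0.88 on the log2 scale). The genes with the libraries' pattern most like it were Laptm4b, Huwe1 and Cyb561d1, at mean centred differences of 0.180, 0.191 and 0.211.

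In the thioredoxin arm the reductase and the repair enzyme had the largest differences between ECH and Ct. Txnrd1 (chr10:82833951-82897712, plus strand), the cytosolic thioredoxin reductase, held 84.2, 42.3, 99.7 and 73.4 CPM in Ct. It held 137, 115, 105 and 98.3 CPM in ECH and 78.3, 105, 94.7 and 88.2 CPM in HF. Only ECH 4, at 98.3 CPM, came below the highest Ct library, Ct 3, at 99.7 CPM, while Ct 2 had the lowest value of all. The log2 fold change was 0.60 in ECH against Ct (95% confidence interval 0.14 to 1.07, 1.52-fold, edgeR FDR 0.281) and 0.29 in HF against Ct (-0.18 to 0.76, edgeR FDR 0.551). Without Ct 2 and HF 1, the libraries with the most genes at 0, these values were 0.40 (edgeR FDR 0.299) and 0.16 (edgeR FDR 0.682), and without Ct 2 alone the second was 0.096. The gene Eid3 lies within Txnrd1 on the same strand and has a row of its own in the counts, and no source used here states how reads in the overlap were assigned.

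Srxn1 (chr2:152105516-152111376, plus strand), the sulfiredoxin gene with the motif matches shown above, held 28.9, 25.6, 38.2 and 22.4 CPM in Ct. It held 60.1, 47.9, 40.3 and 35.8 CPM in ECH and 39.1, 57.5, 48.1 and 36.3 CPM in HF. A single Ct library, Ct 3, exceeded 1 ECH and 1 HF library, and the other 3 Ct libraries lay below all 8 isoproterenol libraries. Srxn1 had a log2 fold change of 0.68 in ECH against Ct (95% confidence interval 0.21 to 1.15, 1.60-fold, edgeR FDR 0.226) and 0.65 in HF against Ct (0.18 to 1.12, 1.57-fold, edgeR FDR 0.187). ECH and HF differed by -0.03 (-0.49 to 0.44, edgeR FDR 0.998). Srxn1 was the only one of the 9 genes with an unadjusted p under 0.05 against Ct at both stages, and these comparisons share the Ct libraries.

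Prdx1 (chr4:116685544-116700822, plus strand), the most abundant member, held 692, 887, 725 and 557 CPM in Ct. It held 1006, 1009.6, 705 and 607 CPM in ECH and 1299.7, 999, 1087 and 933 CPM in HF. Every HF library lay above every Ct library, while the ECH libraries were split, with ECH 1 and 2 at the level of HF and ECH 3 and 4 within the Ct range. The log2 fold change was 0.59 in HF against Ct (95% confidence interval 0.17 to 1.01, 1.51-fold, edgeR FDR 0.183), 0.22 in ECH against Ct (-0.20 to 0.64, edgeR FDR 0.708) and 0.38 in HF against ECH (-0.04 to 0.79, edgeR FDR 0.658).

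Txn1 (chr4:57943373-57956411, minus strand), the cytosolic thioredoxin that PRDX1 draws on, held 137, 218, 165 and 98.9 CPM in Ct. It held 157, 174, 145 and 126 CPM in ECH and 203, 177, 181 and 200.2 CPM in HF. The HF libraries lay above all ECH libraries in a narrow range, whereas the Ct libraries spread over both, with Ct 2 the highest and Ct 4 the lowest of the 12. Txn1 had a log2 fold change of 0.34 in HF against ECH (95% confidence interval -0.08 to 0.77, edgeR FDR 0.711), 0.30 in HF against Ct (edgeR FDR 0.491) and -0.04 in ECH against Ct (edgeR FDR 0.961). A processed pseudogene, Txn-ps1, lies on chromosome 1 and is not among the symbols counted, and no source used here states how reads that match both copies were counted.

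Nqo1 (chr8:107388225-107403206, minus strand), the quinone reductase often used as a readout of NRF2, had few counts and none in 2 of the libraries. The Ct libraries held 63, 0, 73 and 73 counts, or 0.630, 0, 0.738 and 0.706 CPM. The ECH libraries held 0.663, 0.805, 0.763 and 0.242 CPM, and the HF libraries 0, 0.572, 1.02 and 1.38 CPM. The counts of 0 came from Ct 2 and HF 1, the same libraries that held the most genes at 0, where a count of 0 allows up to 0.0349 and 0.0287 CPM (3 counts, counting error only). The groups overlapped, and the 95% confidence interval of the log2 fold change reached from -2.78 to 3.28 in ECH against Ct and from -2.52 to 3.55 in HF against Ct. These intervals leave room for a several-fold difference in either direction. The standard error of the log2 fold change was 1.4 in ECH against Ct and 1.41 in HF against Ct, and 0.648 and 0.696 without Ct 2 and HF 1, where the log2 fold changes were -0.17 and 0.51 (edgeR FDR 0.952 and 0.780).

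**Figure D3:**
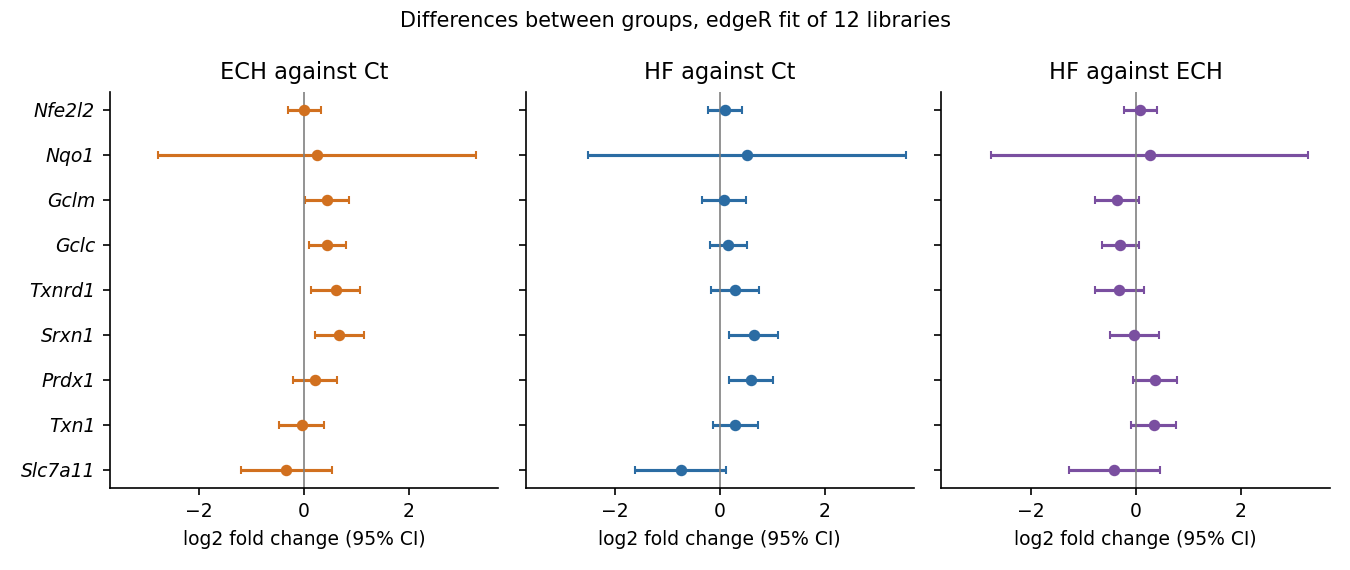
The log2 fold change of each gene (horizontal axis, dot) is plotted with its 95% confidence interval from the edgeR fit of 12 libraries, in a panel for each comparison. In ECH against Ct the intervals of Gclm, Gclc, Txnrd1 and Srxn1 lie above 0, in HF against Ct those of Srxn1 and Prdx1, and in HF against ECH every interval crosses 0. The intervals are not adjusted for the number of genes.

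Counted together, 4 of the 9 genes had an unadjusted p under 0.05 in ECH against Ct, and all 4 were higher in ECH, where 6.03% of all genes tested were higher at that threshold and 5.89% lower. In HF against Ct it was 2 of 9, both higher, against 7.35% of all genes higher and 8.72% lower. In HF against ECH it was 0 of 9, against 2.81% higher and 5.17% lower, or 7.98% in either direction. Log2 fold changes were above 0 for 7, 8 and 4 of the 9 genes in ECH against Ct, HF against Ct and HF against ECH, and for 51.1%, 48.8% and 48.0% of all genes. The median log2 fold change of the 9 genes was 0.25 in ECH against Ct and 0.29 in HF against Ct, beside 0.01 and -0.01 over all genes tested. In HF against ECH it was -0.03, beside -0.02. Groups did not overlap for Gclc in ECH against Ct (4.33% of all genes were higher without overlap), for Prdx1 in HF against Ct (4.59%) and for Txn1 in HF against ECH (3.36%). None of the 9 was lower without overlap in the same comparisons (3.64%, 4.45% and 3.56% of all genes). Groups that do not overlap give the smallest p of an exact two-sided permutation test of 4 against 4 libraries, 0.0286, so this p restates the absence of overlap, and over 27 such tests the lowest adjusted value was 0.220. Both comparisons against Ct share the same 4 Ct libraries, so their values are given side by side and not as separate support.

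The inferred library sets could be compared only within ECH, as 2 libraries against 2. There, libraries 1 and 2 (set A) did not overlap with libraries 3 and 4 (set B) for 7 of the 9 genes, where 54.4% of all genes tested did not overlap. Set A was the higher for Nfe2l2, Txnrd1, Srxn1, Prdx1 and Txn1, and set B for Gclc and Slc7a11. The widest gap was that of Prdx1, at 1006 and 1009.6 CPM in ECH 1 and 2 and at 705 and 607 CPM in ECH 3 and 4. The sample titles carry a further code, which ECH 3 and 4 share and ECH 1 and 2 do not. Ct 1 and 2, Ct 3 and 4, and HF 1 and 2 share codes as well. No source used here states what the code means, and within ECH it cannot be told apart from the inferred set.

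Compared only with libraries of the same set, the differences moved as follows. For ECH 1 and 2 against Ct, the log2 fold change was 0.90 for Srxn1 (edgeR FDR 0.760), 0.74 for Txnrd1 (edgeR FDR 0.947), 0.49 for Prdx1 (edgeR FDR 0.947), 0.27 for Gclm and 0.26 for Gclc (edgeR FDR 0.951 for both), and 0.00674% of all genes tested were called. For HF against ECH 3 and 4, Prdx1 was called at a log2 fold change of 0.72 (edgeR FDR 0.0391) and Txn1 at 0.50 (edgeR FDR 0.0481), where 6.47% of all genes were called. Nfe2l2 had 0.32 there (edgeR FDR 0.122), Gclc -0.45 (edgeR FDR 0.207) and Gclm -0.51 (edgeR FDR 0.241). With the set as a covariate in the model of all libraries, Prdx1 was called in HF against Ct at a log2 fold change of 1.21 (edgeR FDR 0.0455, with 1.51% of all genes called), and Gclm and Gclc turned to -0.24 and -0.19. In the same fit of HF against Ct, Srxn1 had 1.16 (edgeR FDR 0.117) and Nfe2l2 0.53 (edgeR FDR 0.241), against 0.65 and 0.10 without the covariate. Txnrd1 had 0.60 (edgeR FDR 0.489) and Txn1 0.59 (edgeR FDR 0.445), against 0.29 and 0.30. In HF against ECH no member was called with the covariate, where 2.97% of all genes were, and Prdx1 had an edgeR FDR of 0.0668 there. The estimate for HF against Ct passes through the ECH libraries alone, since no other group is in both sets.

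**Figure D4:**
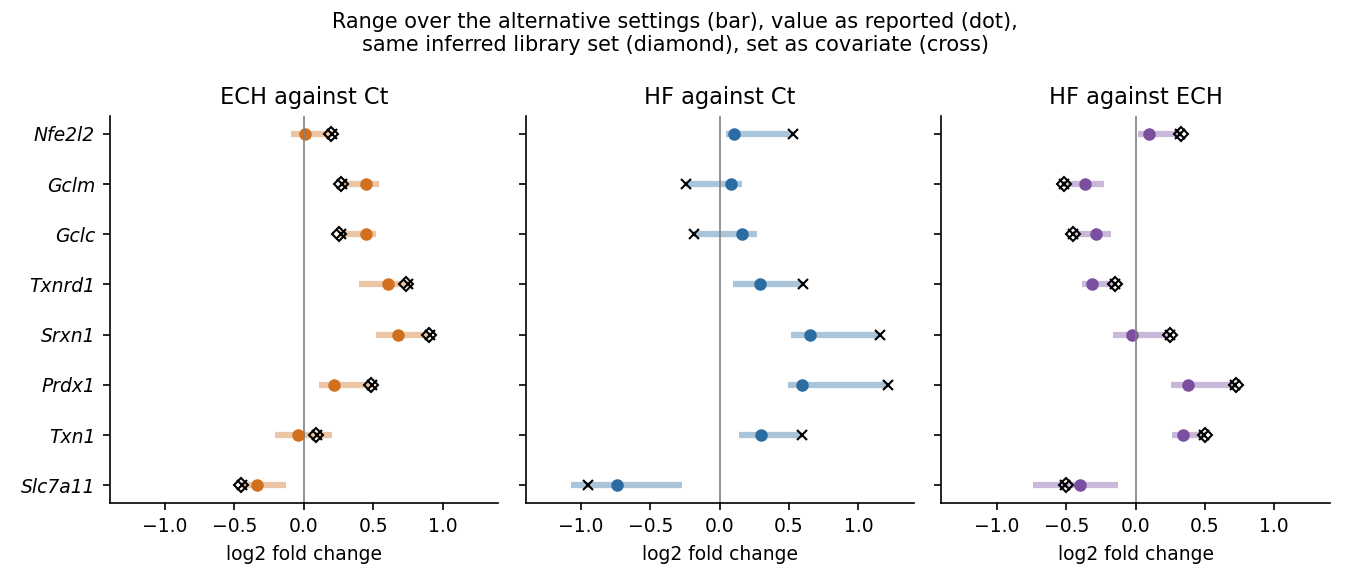
For 8 of the genes (Nqo1 is left out for its width), the log2 fold change as reported (dot) is plotted over the range it took under all alternative settings (bar), with diamonds for comparisons within the inferred library set and crosses for the set as a covariate. Srxn1, Txnrd1, Gclc, Gclm and Prdx1 stay above 0 in every setting of ECH against Ct. Prdx1 moves from 0.59 to 1.21 in HF against Ct with the set as a covariate, and there is no diamond in HF against Ct because no set holds both groups.

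Outside the 9 genes, 31 of 32 other known NRF2 targets could be tested (Gpx2 had too few counts). In HF against Ct 1 of them was called, beside 0.513% of all genes. Esd, which encodes S-formylglutathione hydrolase, rose in HF against Ct, at 83.8 ± 9.68 CPM in Ct, 118 ± 9.91 in ECH and 134 ± 15.1 in HF. Its log2 fold change was 0.68 in HF against Ct (edgeR FDR 0.0364) and 0.49 in ECH against Ct (edgeR FDR 0.126), and neither ECH nor HF overlapped with Ct. The call held without Ct 2, Ct 3 or ECH 4 and was lost when any one of the other 9 libraries was left out (edgeR FDR 0.0507 to 0.123). It was also lost with the library set as a covariate (log2 fold change 0.76, edgeR FDR 0.108), with the replicate block (edgeR FDR 0.0909), with only HF and Ct in the fit (edgeR FDR 0.0761) and without both Ct 2 and HF 1 (edgeR FDR 0.0757). Akr1b8, an aldo-keto reductase gene, held 14.2 ± 5.0 CPM in Ct, 26.1 ± 6.79 in ECH and 31.1 ± 3.71 in HF, with log2 fold changes of 0.88 (edgeR FDR 0.169) and 1.13 (edgeR FDR 0.0764). Every HF library of Akr1b8 lay above every Ct library. Of the 31 targets, 4 were higher and 0 lower without overlap in ECH against Ct, beside 4.33% and 3.64% of all genes. In HF against Ct 3 were higher and 1 lower without overlap, beside 4.59% and 4.45%.

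The most abundant of these targets had smaller differences, without a call. Ftl1, the ferritin light chain, had log2 fold changes of -0.13 in ECH against Ct and -0.01 in HF against Ct, and Fth1, the heavy chain, 0.15 and 0.28. Hmox1, the heme oxygenase gene that BACH1 represses, held 632 ± 194 CPM in Ct, 689 ± 124 in ECH and 530 ± 137 in HF. Over the 31 targets, 7 were higher at an unadjusted p under 0.05 in ECH against Ct and none was lower, beside 6.03% and 5.89% of all genes. In HF against Ct 7 were higher and 1 was lower, beside 7.35% and 8.72%, and in HF against ECH 1 was higher and 2 were lower, beside 2.81% and 5.17%. The median log2 fold change was 0.16 in ECH against Ct, 0.26 in HF against Ct and -0.01 in HF against ECH.

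**Figure D5:**
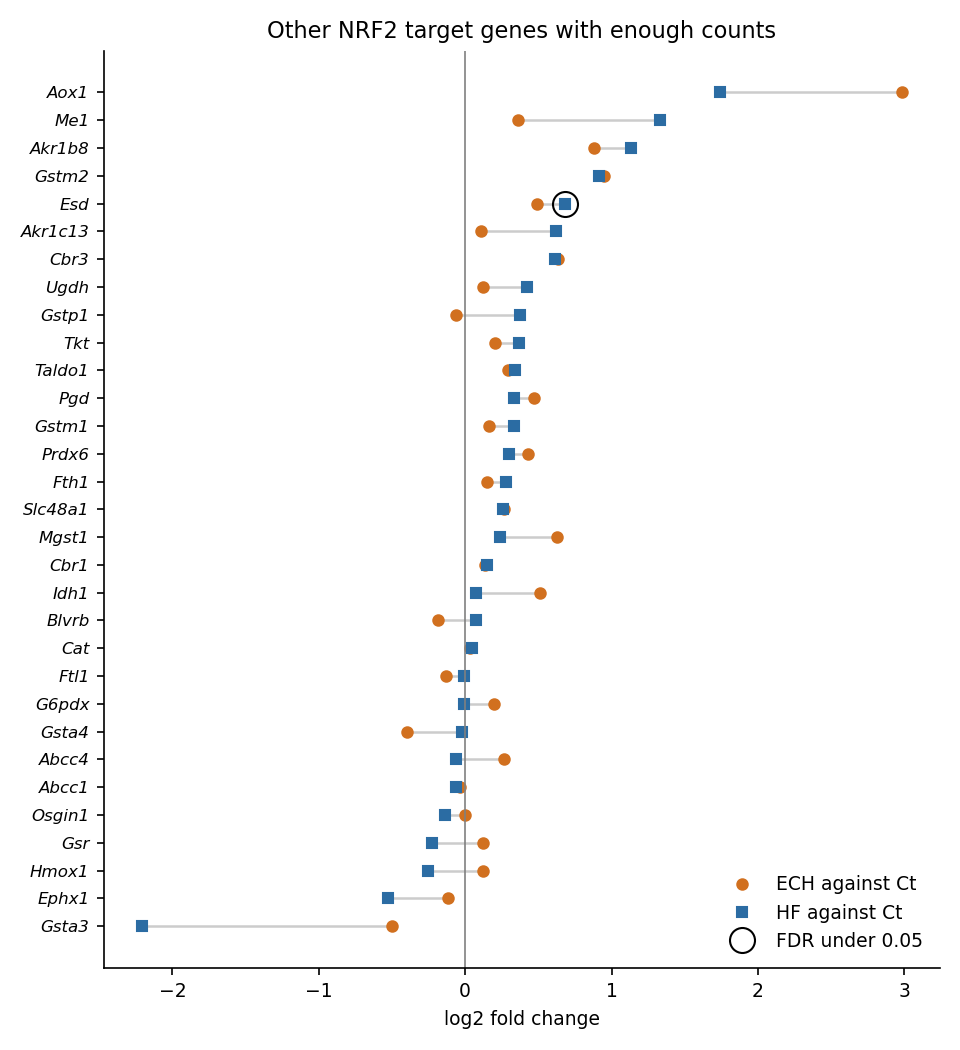
The log2 fold changes of the 31 other NRF2 target genes in ECH against Ct (circles) and in HF against Ct (squares) are plotted on the horizontal axis, joined by a line for each gene and ordered by HF against Ct. Values above 0 outnumber those below it in both comparisons (23 and 21 of 31), and the ring marks Esd in HF against Ct, the only value with an FDR under 0.05.

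Neighbouring pathways held no call. Of 21 glutathione and thioredoxin enzymes outside the 9 genes, 2 were higher and 1 lower in ECH against Ct at an unadjusted p under 0.05, and 0 higher and 1 lower in HF against Ct, beside 6.03% and 5.89%, and 7.35% and 8.72%, of all genes. Their median log2 fold changes were 0.04 and 0.07. Gpx1, the main glutathione peroxidase, held 1853 ± 559 CPM in Ct, 1849.5 ± 192 in ECH and 1767 ± 156 in HF. Txnip, which encodes an inhibitor of thioredoxin, held 792 ± 57.7, 912 ± 251 and 627 ± 95.2 CPM, and its log2 fold change in HF against ECH was -0.54 (edgeR FDR 0.556). Of 10 genes of the NADPH oxidase and nitric oxide synthase list 7 could be tested. Cybb, the catalytic subunit of the phagocyte oxidase, held 1036 ± 195, 905 ± 84.4 and 833 ± 79.7 CPM. Ncf1, its organiser p47phox, held 357 ± 39.1 CPM in Ct, 512 ± 115 in ECH and 355 ± 9.41 in HF, and every HF library lay below every ECH library (log2 fold change -0.53, edgeR FDR 0.534). Rac1 went the other way, with every HF library above every ECH library (log2 fold change 0.23, edgeR FDR 0.727). Cyba had a log2 fold change of 0.21 in HF against ECH (edgeR FDR 0.839). Of the 7 genes, 5 had log2 fold changes above 0 in HF against ECH, with a median of 0.21. There, 1 was higher and 1 lower without overlap, beside 3.36% and 3.56% of all genes. Nox1, Nox4 and Nos2 did not pass the filter on low counts. Nox4 had 0 counts in every Ct and HF library and from 0 to 285 counts in the ECH libraries. The list of the stress factor ATF4, which can also act on Slc7a11, held 14 genes with mixed signs. At an unadjusted p under 0.05, 1 was higher (Trib3) and 2 were lower (Atf3 and Atf4) in ECH against Ct, and 1 was higher (Trib3) and 2 were lower (Phgdh and Atf4) in HF against Ct. Of the 14, 5 and 7 had log2 fold changes above 0. Trib3, a pseudokinase gene induced by ATF4 and named here after its values were seen, held 0.442 ± 0.472 CPM in Ct, 2.20 ± 1.2 in ECH and 2.91 ± 1.12 in HF (edgeR FDR 0.347 and 0.204 against Ct). Atf4 itself held 357 ± 109, 246 ± 53.8 and 225 ± 49.5 CPM, with log2 fold changes of -0.54 in ECH against Ct (edgeR FDR 0.374) and -0.66 in HF against Ct (edgeR FDR 0.199).

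Genes of cell handling and markers of other cell types were summed in each library. The summed CPM of 16 genes that rise on tissue dissociation, led by Fos and Dusp1, was 45607 to 60817 in Ct, 20279 to 46302 in ECH, whereas HF libraries held 22474 to 38354. None of the 16 was called, and 10 were lower at an unadjusted p under 0.05 in each comparison against Ct, beside 5.89% of all genes lower in ECH and 8.72% in HF. The 6 B cell markers measured summed to 98.1 to 459 CPM in Ct, 35.1 to 81.1 in ECH and 52.5 to 74.6 CPM in the HF libraries. The 10 neutrophil markers summed to 433 to 1838 CPM in Ct, 180 to 668 in ECH and 159 to 1357 in HF, and the 10 T and NK cell markers to 25.5 to 115, 13.6 to 53.3 and 19.6 to 39.9 CPM. The 10 fibroblast markers summed to 304 to 823, 500 to 1289 and 640 to 1242 CPM, the 10 endothelial markers to 40.7 to 77.7, 44.2 to 115 and 34.5 to 55.8 CPM, and the 12 cardiomyocyte markers to 116 to 305, 105 to 200.4 and 81.5 to 140.5 CPM. No gene of these last lists was called. The 13 Mφ markers summed to 34071 to 38274 CPM in Ct, 35034 to 47584 in ECH, and 37804 to 47463 CPM across the HF libraries. The part of these other genes in the values of the NRF2 genes was not tested.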

How the data were processed

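Cardiac Mφ RNA of 12 libraries was grouped by the condition in the labels (Ct, ECH and HF, n = 4 each). The authors made cDNA with a SMART-Seq kit, sequenced both ends, trimmed with Trimmomatic, aligned to mm10 with TopHat2 and counted with featureCounts. The deposited files hold raw counts per gene symbol, without normalization. No source used here states the software versions, the strand setting, the annotation or the unit counted (read or fragment). More genes held exactly 2 counts than 1 or 3 in every library, so counts may not be independent.

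The analysis used edgeR 4.0.16 in R 4.3.3 (filterByExpr by group, 14608 genes, TMM, 1 mean per group, quasi-likelihood test, common dispersion 0.370). Benjamini-Hochberg adjustment ran over all genes tested. Exact permutation tests used log2 CPM with 0.1 CPM added and were adjusted over 27 tests (scipy 1.17.1). The study states 4 mice per group. The alternatives were RLE scaling, library totals alone, other filters, DESeq2 1.42.0, the edgeR likelihood ratio test, limma-voom (limma 3.58.1), only the groups compared, a replicate block, the inferred library set, each library left out, Ct 2 and HF 1 left out, and other thresholds. The code was tested on simulated data. Likeness was the mean absolute difference of log2 CPM, centred per gene. Gene positions and exon lengths came from GENCODE M21 (GRCm38, the same assembly as mm10), and promoter sequences from RefSeq (GRCm38.p6). Figures were drawn with matplotlib 3.10.9.

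Genes named are the 9 members, all NRF2 regulators and, from every other list, genes called in any comparison, the 3 with the highest mean CPM and the 2 with the lowest p. A single-gene result that this rule would name is not reported here. For Nfe2l2 and Slc7a11, the 3 genes with the most similar pattern are named too. Other genes are named as markers of the sort, as untested, as overlapping or pseudogene loci, or, for Trib3, after its values were seen. The members, lists and tests were chosen with earlier results of these data known. Same-numbered replicates of different groups did not deviate together (12 pairs, correlations from -0.0758 to 0.0833), so the numbers were taken as names.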

Additional observations from a re-analysis of the deposited data

Results flagged for a closer look

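In 3 of 27 groups of 4 libraries, 1 for each gene and group, a single library stood far from the other 3 by Dixon's criterion, which chance meets in about 1 group of 20. Nqo1 was at 0 CPM in Ct 2, where the other Ct libraries held 0.630 to 0.738 CPM. Gclm was at 27.9 CPM in Ct 2, below 37.9 to 39.4 CPM in the other Ct libraries. Ct 2 also held 127 genes at 0 counts that had at least 100 counts in the other libraries of its group. Slc7a11 was at 7.61 CPM in ECH 4, above 5.83 to 5.91 CPM in the other ECH libraries.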

How the results depend on the processing

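No member was called under any alternative except Prdx1 in HF against Ct with the library set as a covariate (1 member called) and Prdx1 and Txn1 in HF against ECH within the same inferred set (2 members called). The smallest FDR of a member otherwise was 0.0538, for Prdx1 in HF against Ct with DESeq2. The number of genes called in ECH against Ct was 168 at an FDR under 0.10, 480 with DESeq2, 367 when edgeR's likelihood ratio was used, 138 by limma-voom, 8 with only the 2 groups in the fit, 24 with the replicate block, 25 with the set as a covariate, 1 within the same set and 11 to 130 when a library was left out (without Ct 1 and without Ct 3). In HF against Ct it was 203, 702, 487 and 307 for the first 4 of these, 19 with the replicate block, 220 with the covariate and 16 to 162 when a library was left out. In HF against ECH it was 72 by DESeq2, 62 by likelihood ratio, 434 with the covariate, 962 within the same set and 0 whichever library was left out. The replicate block, for which replicates share only a number, changed no member's call. Signs turned for some values that were not called. Nfe2l2 in ECH against Ct gave -0.0016 with RLE scaling and DESeq2, -0.0084 with the 1 CPM filter, -0.0046 with only the 2 groups and -0.0903 to 0.0868 with a library left out. Txn1 in ECH against Ct gave 0.20 with limma-voom, 0.10 with the covariate, 0.0898 within the same set, 0.16 without Ct 2 and HF 1 and -0.20 to 0.17 with a library left out. Srxn1 in HF against ECH gave 0.0048, 0.25, 0.25 and 0.0415 under these settings and -0.16 to 0.13 with a library left out. Gclm and Gclc in HF against Ct gave -0.24 and -0.19 with the covariate, and Gclm -0.0889 to 0.16 with a library left out. Nqo1 gave -0.17 in ECH against Ct without Ct 2 and HF 1 and -0.16 to 0.52 with a library left out, and in HF against ECH -0.083 with the replicate block and -0.22 to 0.68 with a library left out. Nqo1 has no value with the 1 CPM filter. Esd was called in HF against Ct in 10 of 23 alternatives. The causes were not tested. Precision was limited by the 4 libraries in each group.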
